A study of Mus musculus with 6 samples.

Results

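Interleukins, their receptors and the proteins that block them were followed in cultured mouse white adipocytes with or without extra miR-182-5p. The genes were taken by name, as every symbol that begins with Il and a digit, which gave 85 of the 22609 genes counted. By their known roles, 38 of the 85 encode ligands, 39 encode receptor chains, 7 encode antagonists, decoys or binding proteins, and Il4i1 encodes an enzyme induced by interleukin-4. RNA was sequenced from 2 groups of 3 samples, mimic control and miR-182-5p mimic. All 6 came from male C57BL6 mice aged 3 weeks, whose inguinal stromal vascular fraction was differentiated into adipocytes in culture before the mimic was added, so what the groups shared was a differentiated culture that may keep undifferentiated stromal cells. The labels name electroporation and a control vector for these samples, whereas the study's methods describe a mimic carried by a lipid reagent and older mice. Whether the samples of a group came from separate mice or separate cell preparations is not stated, so the p-values measure only the spread between these samples, which may be technical.

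Interleukins are secreted proteins by which immune, stromal and fat cells signal to one another. Many of them bring together a private receptor chain, which sets the specificity, and a shared chain, and the joined chains start the signal. The IL-6 family shares gp130 (Il6st) and signals through JAK kinases and STAT3, IL-4 and IL-13 share the IL-4 receptor alpha chain (Il4ra) and signal through STAT6, and the IL-1 family signals through MyD88 to NF-kB. In fat, IL-33, IL-4 and IL-13 belong to type 2 immunity, which has been linked to beige fat, while IL-6 and IL-1 are best known there from inflammation.

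A miRNA pairs with messenger RNAs mainly through its seed, bases 2 to 8 from the 5′ end. The mature sequence of mouse miR-182-5p in RefSeq (GRCm38.p6, chr6:30165962-30165986, minus strand) is printed because a search of the 3′-untranslated regions given with the IL-6 receptor results rests on it, with the seed in capitals.
miR-182-5p: uUUGGCAAugguagaacucacaccg
Which bases the mimic itself carried is not stated for these samples, and the study's methods print for miR-182-5p a sequence with another seed. The seed matches given here hold for the RefSeq sequence only.

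Between 25869810 and 28796712 reads per sample were counted on genes, and 40218 to 47491 of these fell on the 85 genes. The share of reads on the 85 genes was 0.179% to 0.180% in the mimic control samples and 0.155% to 0.156% in the mimic samples, and Il6st alone held 40.1% to 41.8% of it. Mimic replicate 1 stood apart from its group. On the second principal component of all genes tested, which held 11.8% of the variance, it lay at -13.1 while mimic replicates 2 and 3 lay at 7.60 and 7.35. The first component held 65.1% and separated the groups. Results that depend on mimic replicate 1 are therefore given with and without it.

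Enough reads for a test (the default edgeR filter with a minimum count of 10) were present for 31 of the 85 genes, made up of 9 of 38 ligands, 3 of 7 antagonists, decoys or binding proteins, and 19 of 39 receptors. Of these 31, Il31ra passed the filter through the mimic control group alone, with 3 samples at the minimum there and 0 with the mimic. The other 54 genes never exceeded 15 reads in a sample.

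Levels per length of transcript spanned a wide range in the mimic control samples (RPKM, CPM per kilobase of the principal transcript, where CPM is the read count of a gene scaled to the size of its library, n = 3). Il6st, the shared chain of the IL-6 family, had the highest level at 87.4 ± 0.262 RPKM (SD). It was followed by Il4ra at 58.1 ± 2.26, by the signaling IL-1 receptor Il1r1 at 47.2 ± 1.45 and by the IL-1 receptor antagonist Il1rn at 28.9 ± 1.38 RPKM. The next neighbours in this order, Il17rc at 19.9 ± 1.10 and Il11ra1 at 18.7 ± 0.605 RPKM, did not differ beyond their spread. The ligands were lower. Il34 had 3.66 ± 0.144 RPKM and Il33 2.49 ± 0.179 RPKM, while Il6 had 1.58 ± 0.133 RPKM. At the low end were Il31ra at 0.157 ± 0.00857 and Il12rb2 at 0.125 ± 0.0426 RPKM. The 9 ligands thus spanned 0.228 to 3.66 RPKM and the 19 receptors 0.125 to 87.4 RPKM, with the lengths taken from an annotation other than the one used in counting.

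**Figure D1:**
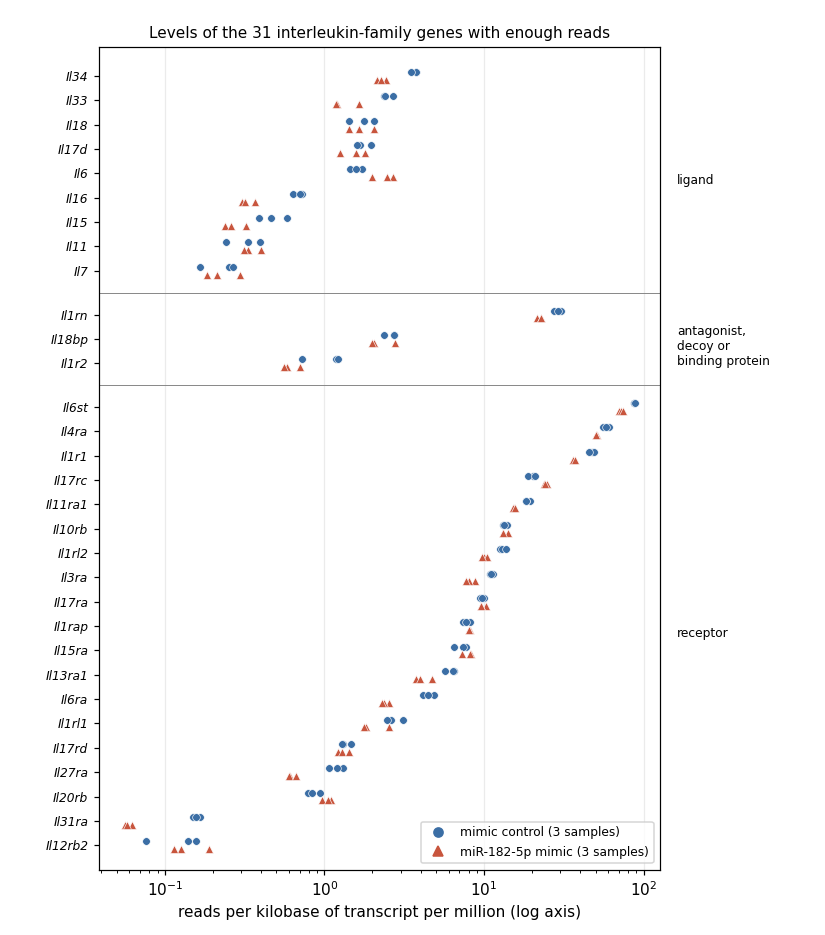
Level per transcript length (RPKM, log axis) of the 31 tested genes, grouped as ligands, antagonists or decoys, and receptors, with 1 point per sample for mimic control (n = 3) and miR-182-5p mimic (n = 3). Il6st lies highest at 87.4 RPKM in mimic control, and the ligand with the highest level, Il34, lies at 3.66 RPKM.

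With the mimic, most interleukin system genes that differed from mimic control were lower. At the study's cutoffs (at least 1.5-fold, and a p under 0.05 from edgeR after Benjamini-Hochberg adjustment across the 13117 genes tested), 8 genes fell, namely Il33, Il34, Il15, Il16, Il1r2, Il6ra, Il27ra and Il31ra, and 1 gene, Il6, rose. Without Il31ra, which was tested only because of its control values, 7 fell. The 8 were 25.8% of the 31 tested, where 5.48% of all genes tested were called lower. The single gene that rose was 3.23%, where 1.97% of all genes were called higher. By the adjusted p alone, 17 of the 31 fell and 2 rose, Il6 and Il17rc, beside 23.5% and 23.2% of all genes. Without Il31ra, 16 of 30 fell and 2 rose. Every mimic sample lay below every mimic control sample for 16 of the 31 and above for 3, beside 27.5% and 27.3% of all genes. The median log2 fold change of the 31 genes was -0.27 and that of all genes tested was -0.0043. The 25.8%, the count of genes without overlap and the median of the 31 include Il31ra. Because these are whole cultures, fewer cells of a type and less RNA per cell cannot be told apart.

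**Figure D2:**
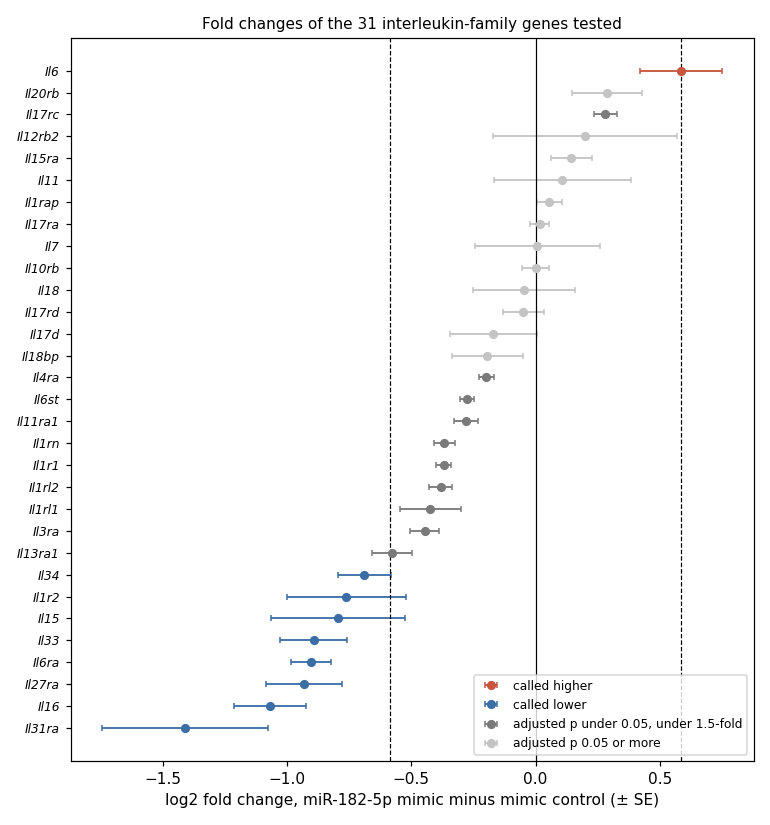
Log2 fold change of each of the 31 tested genes, mimic against mimic control, with bars of 1 standard error from edgeR (n = 3 per group) and dashed lines at the 1.5-fold cutoff. Il6 (0.59) is at the upper line, and Il31ra (-1.41) and Il16 (-1.07) lie farthest below the lower one.

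Among the ligands with enough reads, 4 of 9 fell by the adjusted p, 1 rose and 4 did not pass the test. Of all genes tested, 23.5% fell and 23.2% rose. Il33 (chr19:29925114-29960718 on GRCm38, plus strand), the alarmin that signals through ST2, had 6.01, 6.85 and 6.13 CPM in mimic control replicates 1 to 3 and 3.05, 4.21 and 3.01 CPM with the mimic. All 3 mimic samples were below all 3 control samples, and mimic replicate 2 was the nearest to the controls. The difference was 1.86-fold (log2 fold change -0.89, SE 0.13, edgeR adjusted p = 8.6e-05). Il34 (chr8:110741829-110805924, minus strand), a second ligand of the CSF1 receptor on macrophages, measured 6.36, 6.43 and 5.98 CPM against 3.63, 4.18 and 3.86 CPM. Here too the groups were apart, at 1.61-fold lower with the mimic (log2 fold change -0.69, SE 0.11, edgeR adjusted p = 0.000103).

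Il16 (chr7:83642825-83745726, minus strand) encodes a chemoattractant of CD4-bearing cells that is released from a larger precursor. Its level was 3.34, 3.83 and 3.72 CPM in mimic control and 1.92, 1.59 and 1.66 CPM with the mimic, a 2.10-fold difference without overlap of the groups (log2 fold change -1.07, SE 0.14, edgeR adjusted p = 3.47e-05). The principal Il16 transcript shares 1202 of its 5260 bases with exons of Stard5 on the opposite strand. Stard5 moved the other way, from 305, 283 and 287 reads to 437, 419 and 467 reads (log2 fold change 0.49, edgeR adjusted p = 5.92e-05). Whether counting used the strand is not stated, so it is not known for which gene, if either, reads of the shared bases were counted. Between 196008 and 221939 reads per sample were set aside as ambiguous.

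Il15 (chr8:82331632-82403222, minus strand), a survival factor of natural killer and memory T cells, was low, at 0.746, 0.881 and 1.11 CPM in mimic control and 0.617, 0.455 and 0.496 CPM with the mimic. Mimic replicate 1 came nearest to the controls. The fold was 1.73 lower (log2 fold change -0.79, SE 0.27, edgeR adjusted p = 0.0256). This call was lost in 4 of the 6 fits with 1 sample fewer, with edgeR adjusted p-values of 0.0522 without mimic control replicate 2, 0.12 without mimic control replicate 3, 0.087 without mimic replicate 2 and 0.0729 without mimic replicate 3. DESeq2 gave an adjusted p of 0.128.

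Il6 (chr5:30013114-30019981, plus strand), the founding ligand of the gp130 family, was the only ligand that rose. It measured 1.65, 1.95 and 1.80 CPM in mimic control (42, 51 and 47 reads) and 3.05, 2.81 and 2.27 CPM with the mimic (89, 74 and 64 reads). Each mimic sample was above each control sample, with mimic replicate 1 the highest of the 6. The change was 1.5-fold (log2 fold change 0.587, SE 0.16, edgeR adjusted p = 0.0095), against a cutoff of 0.585 on the log2 scale. The call at 1.5-fold therefore turned on small shifts. Without mimic replicate 1 the log2 fold change was 0.49, without mimic replicate 2 it was 0.57 and without mimic control replicate 1 it was 0.53, all short of the cutoff. With the replicate number as a block it was 0.584, also just short. The edgeR adjusted p passed in each of the 6 fits with 1 sample fewer.

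Il7, Il11, Il17d and Il18 did not pass the test. Il18, an IL-1 family ligand, was at 1.23 to 1.77 CPM in mimic control and 1.23 to 1.75 CPM with the mimic (log2 fold change -0.05, SE 0.20). Il7, a lymphocyte growth factor made by stromal cells, was at 0.805 to 1.30 and 0.891 to 1.44 CPM (0.01, SE 0.25). Il11, which signals through gp130, was at 0.471 to 0.766 and 0.607 to 0.779 CPM (0.11, SE 0.28), and the IL-17 family ligand Il17d at 2.03 to 2.49 and 1.59 to 2.30 CPM (-0.17, SE 0.17). The groups overlapped for all 4.

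The genes whose products hold IL-1 and IL-18 back were Il1r2, Il1rn and Il18bp. Il1r2 (chr1:40074079-40125231, plus strand), the decoy receptor that binds IL-1 without signaling, was at 1.02, 1.68 and 1.72 CPM in mimic control and at 0.822, 0.797 and 0.992 CPM with the mimic. The groups did not overlap, but mimic control replicate 1 lay close to the mimic samples. It was 1.69-fold lower with the mimic (log2 fold change -0.76, SE 0.24, edgeR adjusted p = 0.0183). The adjusted p rose to 0.0786 without mimic control replicate 2, 0.0821 without mimic control replicate 3 and 0.0604 without mimic replicate 2, and DESeq2 gave 0.0648.

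Il1rn, the secreted antagonist that occupies the IL-1 receptor, fell less, from 68.1, 74.9 and 71.6 CPM to 53.3, 56.6 and 56.6 CPM. No mimic sample reached a control sample (log2 fold change -0.37, SE 0.044, edgeR adjusted p = 1.03e-05). Il18bp, which binds and neutralizes IL-18, did not pass the test, at 3.77 to 4.36 CPM in mimic control and 3.19 to 4.42 CPM with the mimic (-0.19, SE 0.14). Mimic replicate 1 was the highest of the 6 samples, and without it the log2 fold change was -0.37 with an edgeR adjusted p of 0.0437.

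Receptors made up most of what could be tested, and 11 of 19 fell by the adjusted p, 1 rose and 7 did not pass. The 11 include Il31ra, tested only because of its control values. Of all genes tested, 23.5% fell and 23.2% rose by the adjusted p. The changes were widest in the gp130 family, where the ligand Il6 rose and the receptor chains fell. Il6ra (chr3:89864059-89913196, minus strand), the private chain that binds IL-6, had 16.3, 13.9 and 14.8 CPM in mimic control and 8.53, 7.86 and 7.65 CPM with the mimic. The lowest control sample was well above the highest mimic sample, and the fold was 1.87 lower (log2 fold change -0.90, SE 0.082, edgeR adjusted p = 7.24e-07). The shared chain Il6st moved less, from 756, 758 and 761 CPM to 612, 626 and 643 CPM. Its groups were nonetheless apart (log2 fold change -0.27, SE 0.028, edgeR adjusted p = 2.67e-06).

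Il27ra (chr8:84030294-84042589, minus strand), the private chain of the IL-27 receptor, measured 3.50, 3.18 and 2.84 CPM in mimic control and 1.61, 1.59 and 1.77 CPM with the mimic. That is 1.91-fold lower, without overlap (log2 fold change -0.93, SE 0.15, edgeR adjusted p = 0.000179). Il31ra (chr13:112519898-112594360, minus strand), which pairs with the oncostatin M receptor to bind IL-31, had 14, 16 and 15 reads in mimic control and 6 in each mimic sample. In CPM these were 0.550, 0.613 and 0.575 against 0.206, 0.228 and 0.213. Its 2.66-fold difference was the largest among the 31 genes (log2 fold change -1.41, SE 0.33, edgeR adjusted p = 0.00313), and a difference in this direction was built into its being tested.

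Il11ra1, the IL-11 receptor, fell slightly, from 38.9, 37.0 and 36.6 CPM to 30.8, 30.4 and 31.4 CPM (log2 fold change -0.28, SE 0.047, edgeR adjusted p = 0.000243). The near-identical copy Il11ra2 had 0 reads in all 6 samples, and reads that align to more than 1 place were not counted, so the level of Il11ra1 is uncertain. Over the gp130 family without Il31ra, 4 of 6 tested genes fell by the adjusted p, 1 rose and 1, Il11, did not pass, beside 23.5% of all genes tested that fell and 23.2% that rose.

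**Figure D3:**
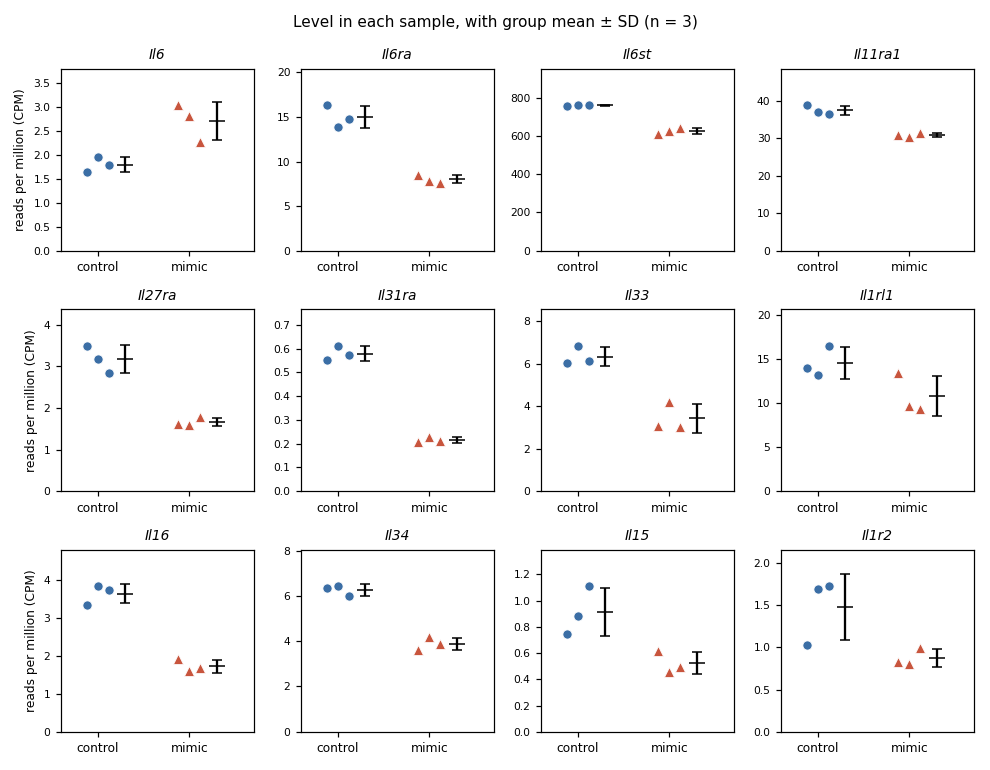
Level in each sample (CPM, linear axes that start at 0, a separate scale in each panel) of 12 genes, with mimic control replicates and miR-182-5p mimic replicates as points and a bar with whiskers for the mean ± SD of each group. Il6 is above its controls in all 3 mimic samples, Il6ra, Il27ra, Il31ra, Il33, Il34, Il16, Il15 and Il1r2 are below, and Il1rl1 overlaps through mimic replicate 1.

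The 3′-untranslated regions of the tested genes were searched for 2 letter runs that pair with the seed of miR-182-5p, TTGCCAA (bases 2 to 8) and TGCCAAA (bases 2 to 7, followed by A), on the transcribed strand. The runs overlap, since they share 6 letters. The regions came from GENCODE M21 on GRCm38, taking the longest annotated for each gene. TTGCCAA was present in 25.8% of the 31 genes and TGCCAAA in 29%, beside 12.5% and 14.3% of 12493 genes tested with such a region. Either run was present in 11 of the 31 (35.5%, beside 20.3%). The median lengths of the regions were 1194 and 1192 bases, but genes with regions of like length were not compared, so the part of length was not tested. A match of letters is a description and not a shown site.

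For each of the 11 genes with a match, 1 window of 25 bases is printed, 5′ to 3′ on the transcript, with the matching letters in capitals, so that genes that fell can be set beside genes that did not pass. The 7 genes that fell come first, at chr3:89868316-89868340 (Il6ra), chr13:112506173-112506197 (Il6st), chr1:40314607-40314631 (Il1r1), chr1:40464228-40464252 (Il1rl1), chr1:40367427-40367451 (Il1rl2), chrX:36169132-36169156 (Il13ra1) and chr19:29959553-29959577 (Il33). The 4 that did not pass follow, at chr6:120483195-120483219 (Il17ra), chr14:27106494-27106518 (Il17rd), chr9:50581603-50581627 (Il18) and chr7:102015088-102015112 (Il18bp). Il6ra and Il18bp are on the minus strand and the others on the plus strand, and each match lies in the last exon.
Il6ra: gggagggtcTGCCAAAgtgggaggg
Il6st: agcctggaaTTGCCAAaatgccgga
Il1r1: ggtatagatTTGCCAAggcctttat
Il1rl1: cttagtgagTTGCCAAaactgacca
Il1rl2: gctttcctcTTGCCAAcatgtctta
Il13ra1: gcagatgttTTGCCAAatctccaaa
Il33: ataataaaaTGCCAAAtgcctccgc
Il17ra: gaaacttcaTGCCAAAtatacccag
Il17rd: ggccagaggTTGCCAAgggccacct
Il18: ctttcttgcTTGCCAAaaggaagat
Il18bp: cactgcctcTTGCCAAataaaaatt
Il1r1 held a further TGCCAAA at position 2694 of its 3′-untranslated region, and Il1rl1 a further TTGCCAA at position 1655. The Il6ra window is not a single copy. It recurs as a tandem repeat that holds TGCCAAA 12 times between positions 2830 and 3266 of the 7102-base 3′-untranslated region of Il6ra-202, with 8 of the gaps at 38 bases, and 10 of the 12 windows are letter for letter the one printed. No other tested gene had as many matches, and the next highest had 9. All 12 lie past the 1837-base 3′-untranslated region of the principal transcript Il6ra-201, and counts per gene do not show which end these cells used.

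Of the 11 genes with a match, 7 fell by the adjusted p, 2 of them by 1.5-fold or more (Il6ra and Il33), 0 rose and 4 did not pass. Of the 20 without one, 10 fell, 6 of them by 1.5-fold or more, 2 rose and 8 did not pass. The median log2 fold change was -0.37 with a match and -0.18 without. The 6 were Il16, Il27ra, Il31ra, Il34, Il15 and Il1r2, of which Il31ra was tested only because of its control values. Of all genes tested, 23.5% fell and 23.2% rose by the adjusted p, and 5.48% were called lower. Changes in all genes with a match were not compared with those in all genes without one. Among genes with a match, Il17ra, Il17rd, Il18 and Il18bp did not pass the test, and the match of Il18 is not that of its principal transcript.

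**Figure D4:**
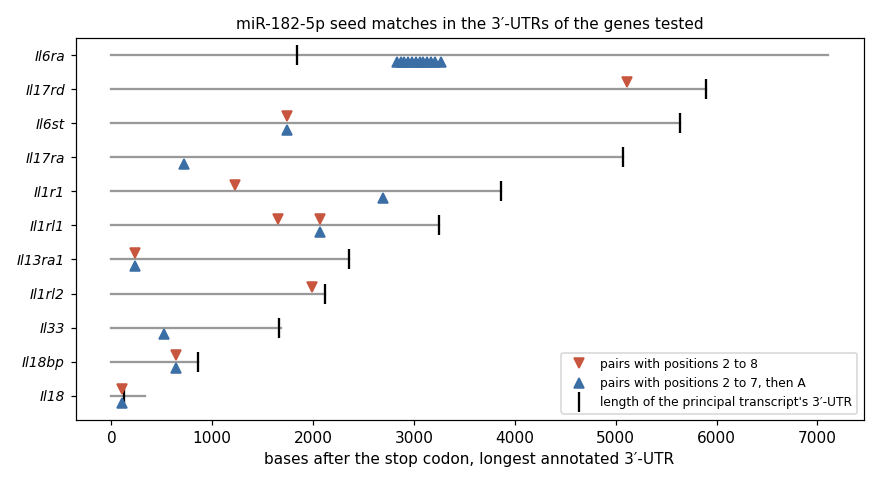
Position of each TTGCCAA and TGCCAAA match along the 3′-untranslated region (bases from the stop codon) in the 11 tested genes that hold one, with a tick at the length of the region in the principal transcript (for Il18 this transcript has another stop codon). The 12 matches of Il6ra form 1 cluster beyond the tick at 1837 bases.

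In the IL-1 family, every receptor chain that passed the test fell, by less than 1.5-fold except for the decoy Il1r2 given above (1.69-fold). Il1r1, the signaling receptor of IL-1, went from 274.5, 283 and 266 CPM to 211, 211 and 216 CPM, without overlap (log2 fold change -0.37, SE 0.030, edgeR adjusted p = 2.31e-07). Il1rl2, the receptor of IL-36, went from 49.1, 50.9 and 53.4 CPM to 39.0, 40.8 and 38.1 CPM, also without overlap (-0.38, SE 0.047, edgeR adjusted p = 1.47e-05). Il1rl1, which encodes the IL-33 receptor ST2 and its soluble form, was at 13.9, 13.1 and 16.5 CPM and at 13.4, 9.68 and 9.35 CPM. Mimic replicate 1 lay among the controls for this gene (-0.42, SE 0.12, edgeR adjusted p = 0.0112).

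The result for Il1rl1 depended on that sample and on others. Without mimic replicate 1 the log2 fold change was -0.61, which is past the 1.5-fold cutoff, with an edgeR adjusted p of 8.47e-05. The adjusted p was 0.0656 without mimic control replicate 3 and 0.0539 without mimic replicate 2. Il1rap, the accessory chain shared by the IL-1, IL-33 and IL-36 receptors, did not pass the test at 33.2 to 36.9 CPM in mimic control and 36.2 to 36.8 CPM with the mimic (0.06, SE 0.050). Ligand and receptor of the IL-33 pair were thus both lower with the mimic, Il33 by 1.86-fold and Il1rl1 by 1.34-fold.

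For IL-4 and IL-13, the receptor chains were read well and the ligands hardly at all. Il4ra, the chain shared by IL-4 and IL-13, was at 317, 294 and 305 CPM in mimic control and 268, 266 and 264 CPM with the mimic. The groups were apart by a small step (log2 fold change -0.20, SE 0.031, edgeR adjusted p = 0.00013). Il13ra1, the partner of Il4ra on non-immune cells, was at 21.2, 24.2 and 23.6 CPM against 17.5, 14.0 and 14.7 CPM. This was 1.49-fold lower, just short of the cutoff (-0.58, SE 0.081, edgeR adjusted p = 4.79e-05), with mimic replicate 1 the nearest to the controls. Without mimic replicate 1 the log2 fold change was -0.68 and without mimic control replicate 1 it was -0.63, both past the cutoff.

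Il15ra, which presents IL-15 to neighbouring cells, did not pass the test, at 10.3 to 12.3 CPM and 11.6 to 13.2 CPM (log2 fold change 0.14, SE 0.082). Il3ra, the private chain of the IL-3 receptor, fell from 26.2, 25.3 and 25.6 CPM to 20.2, 18.6 and 17.9 CPM, with the groups apart (-0.45, SE 0.059, edgeR adjusted p = 2.72e-05).

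Of the 3 IL-17 receptor chains tested, 1 rose and the others did not pass. Il17rc, the partner of Il17ra in the receptor for IL-17A and IL-17F, was the only receptor that rose, from 46.5, 43.1 and 48.1 CPM to 57.5, 54.6 and 55.2 CPM. All mimic samples were above all controls (log2 fold change 0.28, SE 0.047, edgeR adjusted p = 0.000221). Il17ra was at 73.4 to 77.4 CPM in mimic control and 74.3 to 80.2 CPM with the mimic (0.02, SE 0.039), and Il17rd, which also limits FGF signaling, at 10.6 to 12.1 and 10.04 to 11.7 CPM (-0.05, SE 0.082). Neither passed the test, and the groups overlapped for both.

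Of the IL-10 and IL-12 receptor families 3 chains could be tested, and 0 passed the test. Il10rb, the shared chain of the IL-10, IL-22 and type III interferon receptors, was at 24.3 to 25.9 CPM and 24.4 to 26.1 CPM (log2 fold change 0.00, SE 0.054), and its principal transcript shares 569 of 1850 bases with Gm21970 on the same strand. Il20rb, a chain of the receptors for IL-19, IL-20 and IL-24, was at 2.20 to 2.60 and 2.69 to 3.08 CPM (0.29, SE 0.14, edgeR adjusted p = 0.109), which kept the groups apart without passing the test. Il12rb2, a chain of the IL-12 receptor, was at 0.230 to 0.471 and 0.342 to 0.567 CPM (0.20, SE 0.37), and 819 of the 2998 bases of its transcript lie opposite exons of the far more highly expressed Serbp1.

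Of the 54 genes with too few reads, 29 encode ligands, 20 receptors, 4 antagonists or decoys and 1 an enzyme. No read was counted in any sample for 22 of them, among them Il10, Il17a and the IL-18 receptor chain Il18r1, which allows up to 3 reads, or 0.104 to 0.116 CPM, per sample. Another 22 had reads in some samples. Il4, the signature type 2 cytokine, had 0, 2 and 2 reads in mimic control and 2, 4 and 0 with the mimic, and Il13 had 3, 1 and 2 and then 2, 2 and 1 reads. Il1b, the main inflammatory ligand of the IL-1 receptor, had 0, 0 and 2 and then 0, 1 and 0 reads. A difference between the groups was not detectable for these ligands at this depth.

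Besides Il13, 9 genes below the filter had at least 1 read in each of the 6 samples. Of the ligands, Il1a had 3 to 6 reads in mimic control and 3 to 8 with the mimic, Il17c had 1 to 6 and 3 to 6, and Il23a, the private subunit of IL-23, had 2 to 5 and 1 to 2. The IL-13 decoy Il13ra2 had 5 to 7 and 3 to 11 reads, and Il1f10, a member of the IL-1 family described as an antagonist, 2 to 7 and 5 to 14. Of the receptor chains, Il17re had 7 to 10 and 5 to 12 reads, Il2ra 5 to 11 and 3 to 11, the common gamma chain Il2rg 3 to 6 and 1 to 7, and Il28ra 1 to 2 and 2 to 4. Il20ra, the partner of Il20rb, reached the highest count of all genes below the filter, 15 reads in mimic replicate 1, with 0, 6 and 8 in mimic control.

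**Figure D5:**
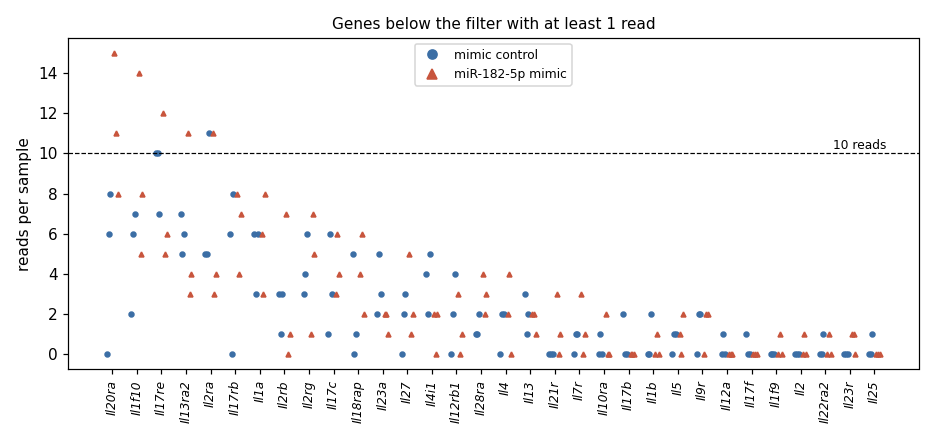
Reads per sample (linear axis) of the genes below the filter that had at least 1 read in any sample, ordered by their highest count, with circles for mimic control, triangles for miR-182-5p mimic and a dashed line at 10 reads. Il20ra reaches 15 reads and Il1f10 reaches 14, both in mimic replicate 1, and the ligands Il4 and Il13 stay at 4 reads or fewer.

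Other genes of the interleukin pathways were read from 5 lists, given here as counts by the same cutoffs, to be read beside all genes tested, of which 1.97% were called higher and 5.48% lower, and 23.2% rose and 23.5% fell by the adjusted p. Of the receptor and ligand partners that do not carry an Il name, 13 of 22 could be tested, 1 was called higher and 0 lower, and 4 rose and 3 fell by the adjusted p (median log2 fold change -0.11). The gene called was Lif, a gp130 ligand like Il6, at 4.64, 5.25 and 5.71 CPM in mimic control and 8.84, 8.96 and 9.53 CPM with the mimic, without overlap (0.81, SE 0.096, edgeR adjusted p = 1.0e-05). Among the JAK, STAT and SOCS genes and their regulators, 27 of 28 were tested, 1 was called higher and 0 lower, and 10 rose and 5 fell by the adjusted p (median 0.08). That gene was Stat2, a transducer of interferon signals, at 67.1, 104 and 109 CPM against 223, 136 and 125 CPM, where mimic replicate 1 was far above the others (0.79, SE 0.19, edgeR adjusted p = 0.00322). Without mimic replicate 1 the log2 fold change of Stat2 was 0.48, short of the 1.5-fold cutoff (edgeR adjusted p = 0.00324), and the list had 0 genes called. It had 2 called without mimic replicate 2 and 2 without mimic replicate 3.

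Of the 27 genes that carry signals of IL-1, IL-18, IL-33 and IL-17 to NF-kB, all tested, 0 were called in either direction, while 11 rose and 2 fell by the adjusted p (median log2 fold change 0.08). Of 28 genes known to respond to IL-1, IL-6 or IL-17, 21 were tested and went both ways, with 1 called higher, 3 called lower, and 6 rising and 10 falling by the adjusted p (median -0.09). Ptgs2, the inducible cyclooxygenase, went up from 17.7 ± 0.884 to 44.0 ± 7.81 CPM (SD, n = 3 each). The matrix protease Mmp3 went down from 30.6 ± 1.38 to 14.1 ± 2.51 CPM, the neutrophil chemokine Cxcl5 from 17.4 ± 0.648 to 9.41 ± 0.809 CPM and the adhesion molecule Icam1 from 2.63 ± 0.0206 to 1.602 ± 0.0953 CPM. Of the 14 genes for the maturation and release of interleukins, 10 were tested, 0 were called, and 2 rose and 3 fell by the adjusted p (median -0.13).

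Markers of the cells that these cultures could hold were read beside the interleukin genes. Their counts are to be read beside all genes tested, of which 5.48% were called lower and 1.97% higher. The adipocyte markers were present, with all 12 tested and a summed level of 13280 to 14089 CPM in mimic control and 9281 to 10453 CPM with the mimic, and 2 of them, Fabp4 and Retn, were called lower. The fibroblast and progenitor markers summed to 42349 to 44240 and 37181 to 38435 CPM, with 5 of 11 tested called lower, so stromal transcripts were abundant in both groups. The macrophage markers summed to 13.5 to 15.1 and 12.2 to 15.3 CPM, led by Csf1r and Cd68, with Cd163 at 0 reads and 1 of 3 tested, Lyz2, called lower from 34, 29 and 33 to 28, 18 and 21 reads. Of the T cell markers, Cd3d, Cd3g and Cd8a were at 0 reads in all 6 samples.

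Markers of mast cells and eosinophils summed to 1.18 to 1.84 CPM in mimic control and 1.06 to 1.35 CPM with the mimic (Ccr3 and Fcer1a at 0). Endothelial markers summed to 8.93 to 10.03 and 5.47 to 6.45 CPM, with 1 of 4 tested, Tek, called lower and Cldn5 at 0. Mesothelial markers summed to 23.4 to 24.5 and 35.3 to 46.9 CPM, with 1 of 2 tested, Krt19, called higher. The lower endothelial sum was mostly Tek, at 6.05 ± 0.608 CPM in mimic control and 2.43 ± 0.247 CPM with the mimic (SD, n = 3 each), while Kdr, Vwf and Cdh5 did not pass the test. The higher mesothelial sum was mostly Krt19, at 22.8 ± 0.595 and 39.7 ± 5.84 CPM, while Lrrn4 did not pass. By the adjusted p, 9 of the 12 adipocyte markers fell and 1, Lep, rose. Of the 11 fibroblast and progenitor markers tested, 8 fell and 1, Thy1, rose, beside 23.5% of all genes tested that fell and 23.2% that rose. The part of these markers in the interleukin results was not tested.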

How the data were processed

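RNA-seq of 3 mimic control and 3 miR-182-5p mimic samples was analysed. The authors deposited, for each sample, raw counts of reads by gene symbol, and the submitters' processing notes name bcl2fastq, TopHat2, HTSeq and mm9, without versions. The labels describe strand-specific poly(A) libraries; whether counting used the strand is not stated. The 5 tally lines were left out. Reads outside genes were 12.7% to 13.0% of unique alignments, and alignments that were not unique were not counted.

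Counts were tested with edgeR 4.0.16 in R 4.3.3 (TMM, filterByExpr, glmQLFit, glmQLFTest, two-sided, Benjamini-Hochberg over all 13117 genes tested, no block). Calls needed 1.5-fold and an adjusted p under 0.05. CPM used TMM-scaled libraries. Alternatives were DESeq2 1.42.0, limma-voom (limma 3.58.1), DESeq2 or upper-quartile factors within edgeR, other filters, a replicate block, leaving out each sample, glmTreat and a 2-fold cutoff. An exact permutation test of 3 against 3 cannot go below p = 0.1. Scripts were tested on simulated data. Tables and figures used Python 3.11.15, pandas 2.3.3 and matplotlib 3.10.9.

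Every gene of the family with enough reads was named, and below the filter those read in all 6 samples and Il4 and Il13; Il1b, Il10, Il17a, Il18r1 and Il20ra were added after their values were seen. From the other lists, called genes, markers at 0 and the most abundant markers were named, and the summed levels of the lymphocyte marker lists are not reported here. The members and lists were chosen with earlier results of these data known. The symbols of the family were looked up in GENCODE M21 (GRCm38), 82 directly and 3 by older symbols, for transcript lengths, coordinates and 3′-untranslated regions, which may differ from the annotation used in counting.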

Additional observations from a re-analysis of the deposited data

How the results depend on the processing

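Il16, Il27ra, Il33, Il34 and Il6ra were called lower in each of the 6 fits with 1 sample fewer, and with DESeq2, limma-voom, and every scaling, filter and block in which they were tested. Il31ra was too, but it was tested only because of its control values, so this says nothing of its stability. The count of genes called higher (1, Il6) was 0 with upper-quartile factors, limma-voom, glmTreat and a 2-fold cutoff, and 0 to 1 when 1 sample was left out. The count called lower (8) was 2 with glmTreat, 2 with a 2-fold cutoff, 6 with DESeq2 and 6 to 10 when 1 sample was left out. Of the 9 genes called, 8 were shared by the 10 called without mimic replicate 1. With at least 1 read in any sample as the filter, 63 genes passed, and with 10 reads in every sample 29 passed. The JAK, STAT and SOCS list had 0 genes called with DESeq2 in place of 1, and 0 to 2 when 1 sample was left out, an alternative chosen after seeing the data.

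The replicate numbers did not pair the samples. Deviations of same-numbered samples had a mean correlation of -0.102 (-0.185 to -0.0436) and those of other pairs 0.0508. With the replicate block, 0 genes were called higher and 8 lower.

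Of the log2 fold changes near 0, Il10rb was -0.011 with upper-quartile factors and -0.00014 with limma-voom, and Il7 was -0.0056 with upper-quartile factors. Leaving out 1 sample gave -0.027 to 0.028 for Il10rb, -0.20 to 0.15 for Il7, -0.059 to 0.27 for Il11, -0.054 to 0.40 for Il12rb2, -0.020 to 0.039 for Il17ra, -0.11 to 0.0082 for Il17rd and -0.18 to 0.081 for Il18. The cause of these reversals was not tested. Of 38 ligands, 29 had too few reads for a test at this depth.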

Other observations

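Palm3, a gene that ends opposite Il27ra and shares 2 exon bases with it, had 34, 29 and 32 reads in mimic control and 5, 14 and 11 reads with the mimic (log2 fold change -1.76, SE 0.31, edgeR adjusted p = 0.000342), so both of these neighbours on chromosome 8 were lower with the mimic, and every mimic sample was below every control sample for each of them. Mimic replicate 1 was the highest of the 6 samples for 5 of the 31 tested interleukin system genes.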
